A study of Mus musculus with 11 samples.

Results

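Acinar identity transcription factors are the DNA-binding proteins that keep the enzyme-secreting cells of the exocrine pancreas in their differentiated state. The 8 genes described here, Ptf1a, Rbpjl, Bhlha15, Nr5a2, Gata4, Gata6, Foxa2 and Foxa3, were taken by gene symbol, with earlier results of these data known. All 8 had a row in both count tables of the study, among 54532 genes listed for the pancreas and 46078 listed for epididymal adipose tissue, the visceral fat pad beside the testis.

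The study modelled obesity-related alcohol-induced acute pancreatitis (OA-AP) in male wild-type C57BL/6J mice (C57BL/6 in the labels) and sequenced bulk RNA from 11 libraries in 4 groups. Control mice received chow with 10 kcal% fat and saline injections, and their pancreas gave 2 libraries and their adipose tissue 3. OA-AP mice received a diet with 60 kcal% fat for 12 weeks and then 2 intraperitoneal injections of ethanol at 2 g/kg, 1 h apart, and gave 3 libraries from each tissue, collected 12 h after the first injection. Mice were 16 weeks old in the labels, and none carried a transgene or a deletion. Diet, ethanol and pancreatitis changed together, so their parts cannot be told apart, and in whole tissue fewer cells of a type cannot be told apart from less RNA per cell. The labels name the samples as separate without giving the animals behind them, so p-values measure only the spread between these libraries.

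Acinar cells build and package digestive enzymes. PTF1, the complex at the centre of this program, joins the basic helix-loop-helix protein PTF1A to an E protein such as TCF3 or TCF12 and to an RBPJ-family protein: RBPJ in the embryonic pancreas and its acinar counterpart RBPJL in the mature gland. BHLHA15, also called MIST1, builds the secretory apparatus, the nuclear receptor NR5A2 works together with PTF1 on enzyme genes, and the GATA and FOXA factors act from the early pancreas onwards.

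The libraries held 14188832 to 17238919 counts in the pancreas and 20825177 to 27928097 in adipose tissue. Levels in counts per-million (CPM) were scaled with TMM factors, which set the libraries to a common level from the bulk of their genes. A list of 25 acinar secretory genes, digestive enzymes and other products of the secretory granule, made up 70.1% and 72.0% of control pancreas counts and 54.0%, 56.2% and 57.0% of OA-AP pancreas counts, so the pancreas was acinar tissue by its markers in all 5 libraries. Adipose tissue matched its label by its adipocyte markers, whose summed level was 24228 to 28301 CPM there and 23.9 to 70.4 CPM in the pancreas. Among the adipose libraries control replicate 2 stood apart, with 211857 counts of the acinar secretory genes (0.938% of its total) against 201 to 391 in the other 5 libraries, and adipose results of the members are therefore given with and without it.

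PTF1 is known to bind a paired element, an E-box beside an RBPJ site, so the DNA before the start site of 4 members is shown: Rbpjl and Bhlha15, which had the largest changes in the pancreas, and Ptf1a and Nr5a2, which did not pass the test there. Of the 8 members 6 were found in the RefSeq promoter table for GRCm38.p6. The stretches run 5′ to 3′ on the strand of the gene, and capitals mark E-boxes (CANNTG) and RBPJ sites (TGGGAA), found on either strand. They lie at chr2:164402944-164403140 on the + strand for Rbpjl, chr5:144190036-144190285 on the + strand for Bhlha15, chr2:19445413-19445662 on the + strand for Ptf1a and chr1:136960449-136960698 on the - strand for Nr5a2. The Rbpjl stretch stops at the gene start of the deposited table, 53 bases before the RefSeq start site.
Rbpjl: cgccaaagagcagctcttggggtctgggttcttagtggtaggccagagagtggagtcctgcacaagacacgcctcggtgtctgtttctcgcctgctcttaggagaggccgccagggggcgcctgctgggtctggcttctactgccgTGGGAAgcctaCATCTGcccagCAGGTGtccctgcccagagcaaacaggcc
Bhlha15: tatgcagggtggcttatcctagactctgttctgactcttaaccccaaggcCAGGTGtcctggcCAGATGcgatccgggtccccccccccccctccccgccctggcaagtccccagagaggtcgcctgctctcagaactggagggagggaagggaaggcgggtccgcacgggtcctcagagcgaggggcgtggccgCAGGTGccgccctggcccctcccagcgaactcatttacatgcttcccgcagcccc
Ptf1a: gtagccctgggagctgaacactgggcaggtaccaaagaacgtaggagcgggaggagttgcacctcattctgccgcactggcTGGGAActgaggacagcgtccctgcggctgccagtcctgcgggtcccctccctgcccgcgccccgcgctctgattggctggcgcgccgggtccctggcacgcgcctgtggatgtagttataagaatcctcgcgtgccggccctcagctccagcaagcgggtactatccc
Nr5a2: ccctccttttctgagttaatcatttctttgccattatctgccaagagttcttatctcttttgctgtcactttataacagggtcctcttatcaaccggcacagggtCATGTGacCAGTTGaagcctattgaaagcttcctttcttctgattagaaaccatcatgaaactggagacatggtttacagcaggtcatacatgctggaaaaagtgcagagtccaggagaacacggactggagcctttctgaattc

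In the 250 bases before its RefSeq start site, Rbpjl had 1 RBPJ site followed after 5 bases by an E-box, and a further E-box nearer to the gene. Bhlha15 had 3 E-boxes and no RBPJ site, Ptf1a had 1 RBPJ site and no E-box, and Nr5a2 had 2 E-boxes and no RBPJ site. Of 32851 promoter windows of this length, 66.2% held an E-box and 21.6% an RBPJ site, whereas 2.46% held both with at most 10 bases between them, a spacing chosen after the sequences were seen. The GATA site AGATAA, present in 9.99% of windows, had 1 match before Rbpjl, past the end of the stretch shown, and 2 before Nr5a2. Neither the NR5A2 site AAGGTCA (4.08% of windows) nor the FOXA site TGTTTAC (3.17%) occurred in these 4 windows, and none of the matches overlapped one of another motif. A match is a run of letters in the DNA and binding was not measured.

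In the pancreas 4 of the 8 factors were downregulated in OA-AP under TMM scaling, 1 was upregulated and 3 did not pass the test, a split that became 2, 3 and 3 under library totals. Rbpjl and Bhlha15 fell the most, by 6.92-fold and 6.70-fold, Foxa2 and Gata4 fell by 2.32-fold and 1.75-fold, and Foxa3 rose by 1.60-fold. Ptf1a, Nr5a2 and Gata6 did not pass. A gene was called when its Benjamini-Hochberg adjusted p-value in edgeR's quasi-likelihood test was under 0.05 and its fold change at least 1.5, and with 2 controls these calls rest on few libraries. Of all 12884 genes tested 29.8% were called, 13.5% as lower and 16.2% as higher in OA-AP. Under library totals 6349 of them were called, 92% of these as higher. The median log2 fold change was -0.64 over the members and 0.04 over all tested genes, and 0.07 and 0.75 under library totals. The CPM of the groups did not overlap for 6 of the 8 members, as for 62.3% of the genes tested.

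**Figure D1:**
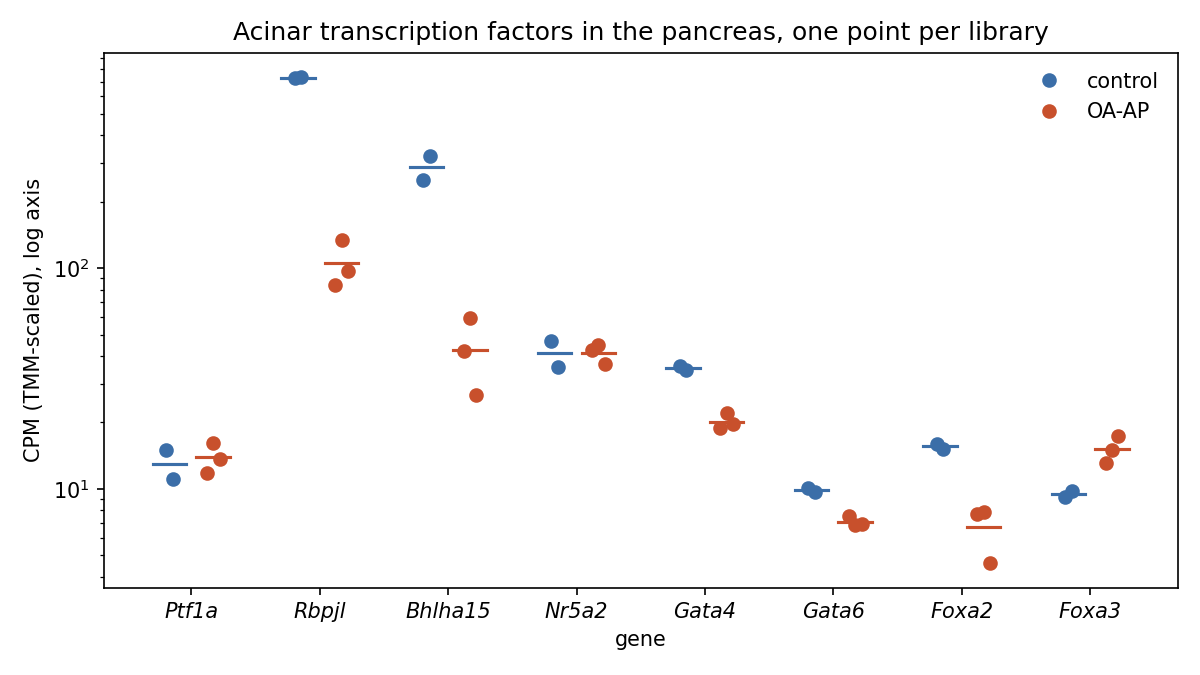
TMM-scaled CPM (log axis) of the 8 factors in the pancreas, with a point for each of the 2 control and 3 OA-AP libraries and a line at each group mean. Rbpjl stood at 725 and 733 CPM in the controls and at 84.3 to 135 CPM in OA-AP, whereas the points of Ptf1a and of Nr5a2 from both groups intermingled.

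The subunits of PTF1 went apart. Ptf1a (ENSMUSG00000026735, chr2:19445663-19447501, + strand), which gives the complex its name and starts the acinar program, was at 14.9 and 11.1 CPM in the controls and at 11.9, 16.1 and 13.7 CPM in OA-AP. The groups overlapped, with means of 13.0 ± 2.73 (SD, n = 2) and 13.9 ± 2.14 CPM (SD, n = 3). The log2 fold change was 0.09 (SE 0.20, adjusted p = 0.755), and its 95% interval ran from -0.37 to 0.55.

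Rbpjl (ENSMUSG00000017007, chr2:164403141-164415448, + strand), which encodes the subunit of the adult complex, was at 725 and 733 CPM in the controls. In OA-AP it was at 84.3, 135 and 97.0 CPM, so that every OA-AP library lay far below both controls. The log2 fold change was -2.79 (SE 0.20, adjusted p = 0.000114), and Rbpjl ranked 67 by p-value among all genes tested. It overlaps Matn4, a gene of the opposite strand, over 2020 bases. Matn4 had 188 to 257 counts in the pancreas libraries against 1606 to 8446 for Rbpjl, and the strand setting of the counting is not given in the sources used here, so reads of the shared stretch cannot be told apart. Ptf1a also overlaps an antisense gene, Ptf1aos, which had 0 to 3 counts.

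Bhlha15 (ENSMUSG00000052271, chr5:144190286-144194441, + strand), the regulator of secretory cell architecture, was at 251 and 322 CPM in the controls and at 42.0, 59.6 and 26.7 CPM in OA-AP. The lowest control was far above the highest OA-AP library, and the OA-AP libraries had a mean of 42.8 ± 16.4 CPM (SD, n = 3). The log2 fold change was -2.74 (SE 0.32, adjusted p = 0.00144).

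Nr5a2 (ENSMUSG00000026398, chr1:136842571-136960448, - strand), the nuclear receptor, was at 47.0 and 35.7 CPM in the controls and at 42.6, 44.7 and 36.8 CPM in OA-AP. All 3 OA-AP values lay between the controls. Its log2 fold change was -1.17e-05 (SE 0.16, adjusted p = 1), with a 95% interval from -0.37 to 0.37.

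The zinc finger factors Gata4 and Gata6 were both lower in every OA-AP library, and Gata4 alone passed the test. Gata4 (ENSMUSG00000021944, chr14:63198922-63271692, - strand) was at 36.0 and 34.6 CPM in the controls and at 18.8, 22.0 and 19.7 CPM in OA-AP, a log2 fold change of -0.81 (SE 0.13, adjusted p = 0.00326). Gata6 (ENSMUSG00000005836, chr18:11052508-11085635, + strand) was at 10.1 and 9.67 CPM in the controls and at 7.51, 6.86 and 6.96 CPM in OA-AP. Its log2 fold change of -0.48 (SE 0.17) had an adjusted p of 0.0659. A transcript of the opposite strand, 1010001N08Rik, overlaps Gata6 over 60 bases and had 22 to 71 counts against 97 to 143 for Gata6.

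The forkhead factors Foxa2 and Foxa3, pioneer proteins that open closed chromatin, changed in opposite directions. Foxa2 (ENSMUSG00000037025, chr2:148042877-148046969, - strand) was at 16.0 and 15.2 CPM in the controls and at 7.67, 7.89 and 4.60 CPM in OA-AP, with a log2 fold change of -1.22 (SE 0.24, adjusted p = 0.00692). Foxa3 (ENSMUSG00000040891, chr7:19013284-19023538, - strand) was at 9.18 and 9.77 CPM in the controls and at 13.1, 15.0 and 17.3 CPM in OA-AP, with a log2 fold change of 0.68 (SE 0.18, adjusted p = 0.0219). Neither pair of groups overlapped. The third family member, Foxa1, had 0 counts in 4 of the 5 pancreas libraries and 3 counts in OA-AP replicate 3. Without control replicate 1 or without control replicate 2 the calls of Foxa2 (log2 fold changes of -1.17 and -1.25) and of Foxa3 (0.64 and 0.72) were lost, which left 3 called members, and Foxa3 was also not called without OA-AP replicate 3 (0.52).

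Levels can be compared between genes only per length, and CPM per kb of the deposited gene length put Rbpjl first in the control pancreas at 127 ± 1.01 (SD, n = 2), followed by Bhlha15 at 82.0 ± 14.2. Gata4 at 9.05 ± 0.261, Ptf1a at 8.62 ± 1.81, Nr5a2 at 7.01 ± 1.36 and Foxa2 at 6.58 ± 0.266 followed, and the ranges of neighbours among these 4 overlapped. Foxa3 at 4.65 ± 0.205 and Gata6 at 1.77 ± 0.0574 came last and overlapped with no neighbour. In OA-AP the order was Rbpjl at 18.4 ± 4.57 (SD, n = 3), Bhlha15 at 12.2 ± 4.70, Ptf1a at 9.21 ± 1.42, Foxa3 at 7.43 ± 1.03 and Nr5a2 at 7.02 ± 0.695, each overlapping with the next. Gata4 at 5.17 ± 0.412, Foxa2 at 2.84 ± 0.776 and Gata6 at 1.27 ± 0.0622 were each separate from their neighbours. The wide gap by which Rbpjl and Bhlha15 led the other 6 in the controls was therefore narrower in OA-AP, where their lowest library values were 14.7 and 7.65 CPM per kb and the highest of Ptf1a was 10.7.

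The size of each change moved with the scaling of the libraries. Scaling by library totals alone raised the median log2 fold change of all genes by 0.71, and TMM factors computed without the acinar secretory genes shifted it by -0.61, whereas DESeq2 size factors shifted it by -0.03. The split of calls followed, with 54.5% of the called genes higher in OA-AP under TMM, 92% under library totals, 50.7% under DESeq2 size factors and 13.8% under TMM without the secretory genes. In the same order 3834, 6349, 3807 and 5703 of the 12884 genes tested were called. Rbpjl was called lower under all 4 scalings, with log2 fold changes from -3.40 to -2.08, and so was Bhlha15, from -3.37 to -2.00. Gata4 (-0.10) and Foxa2 (-0.49) were not called under library totals, and Gata6, which then changed sign to 0.23, was called only under TMM without the secretory genes (-1.09). Ptf1a (0.79) and Nr5a2 (0.71) were called higher under library totals, Nr5a2 was called lower (-0.61) and Ptf1a had a value of -0.51 without a call under TMM without the secretory genes, and Foxa3 was at 0.065 there without a call.

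A change of scaling moves all genes by nearly the same amount, so the values relative to the median gene are fixed by construction and describe each factor apart from the scaling. Rbpjl was at -2.83 under all 4 scalings, Bhlha15 at -2.79 to -2.75, Foxa2 at -1.26 to -1.24, Gata4 at -0.85, Gata6 at -0.52, Nr5a2 at -0.04, Ptf1a at 0.04 to 0.06 and Foxa3 at 0.63 to 0.64, in log2 units relative to the median of the genes tested. The change of the median itself cannot be settled from these libraries, so the changes above are relative to the bulk of pancreas genes.

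**Figure D2:**
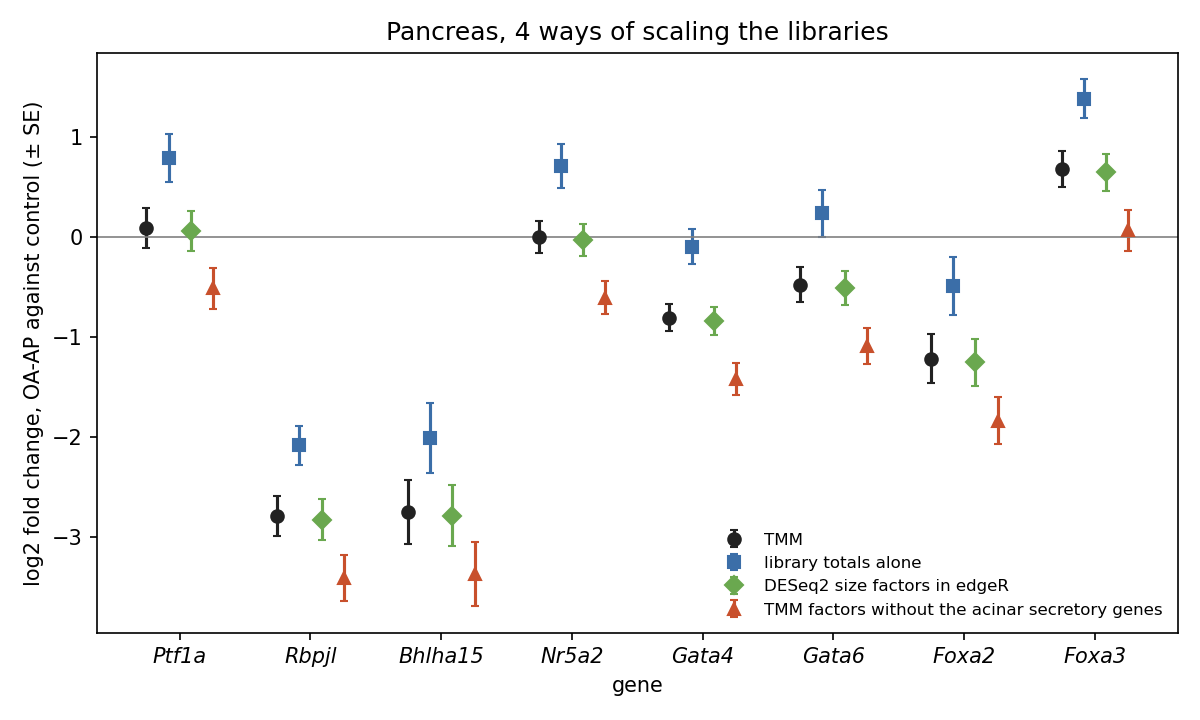
Log2 fold change of OA-AP against control in the pancreas (points, with bars of ± SE) for the 8 factors under 4 ways of scaling the libraries. All points of a gene shift together, from -2.08 to -3.40 for Rbpjl and from 0.79 to -0.51 for Ptf1a, so that the distances between genes stay nearly equal.

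Counts within a library, set against each other, need no scaling. As a per-million share of the acinar secretory counts, Rbpjl was at 819 and 710 in the controls and at 205, 295 and 189 in OA-AP, a log2 difference of -1.76. Bhlha15 was at 284 and 311 against 102, 130 and 52.0 (-1.75), so both were lower even relative to the secretory genes. The secretory genes themselves had 17 of 25 called lower, 1 called higher and a median log2 fold change of -1.23 under TMM scaling, and 10 called lower, 2 higher and a median of -0.54 under library totals. Of all 12884 genes tested 13.5% were called lower under TMM. Library totals called 6349 of them, 92% of these as higher.

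Of the remaining factors 4 were higher on this scale and 2 overlapped between the groups. Ptf1a was at 16.9 and 10.7 in the controls and at 28.9, 35.3 and 26.6 in OA-AP (1.16), Nr5a2 at 53.1 and 34.6 against 104, 98.0 and 71.6 (1.07), Gata6 at 11.4 and 9.36 against 18.3, 15.0 and 13.5 (0.58) and Foxa3 at 10.4 and 9.46 against 32.0, 32.8 and 33.7 (1.73). The groups overlapped for Gata4, at 40.7 and 33.5 against 45.9, 48.1 and 38.4 (0.25), and for Foxa2, at 18.1 and 14.7 against 18.7, 17.3 and 8.95 (-0.19). The 4 higher members stood with 71.4% of all genes tested, which were higher without overlap on this scale, and the median gene had a log2 difference of 1.08. The 2 lower members, Rbpjl and Bhlha15, stood with 4.79% of genes. A two-sided exact permutation test of 2 against 3 libraries cannot go below p = 0.1, the value it gave for the 6 members without overlap, while Gata4 had p = 0.3 and Foxa2 p = 0.9.

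Ratios between members, or of a member to Rbpj, in counts per kb, restate the same counts without a scaling. Rbpjl exceeded Rbpj, the gene of the ubiquitous PTF1 subunit it replaces in mature acini, by ratios of 182 and 162 in the controls and 15.9, 30.1 and 19.5 in OA-AP. Ptf1a stood to Rbpjl as 0.0783 and 0.0574 in the controls and as 0.535, 0.455 and 0.535 in OA-AP. Bhlha15 to Ptf1a went from 7.27 and 12.5 to 1.53, 1.59 and 0.845. The forkhead pair crossed over, with Foxa2 above Foxa3 in both controls (1.502 and 1.33) and below it in every OA-AP library (0.502, 0.453 and 0.229). These 4 ratios each reached the smallest p the exact permutation test allows, 0.1, with log2 differences of -3.03, 2.92, -2.91 and -1.92.

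The other ratios moved little. Gata4 to Gata6 was 5.10 and 5.12 in the controls and 3.59, 4.58 and 4.06 in OA-AP, a log2 difference of -0.33 (exact permutation p = 0.2) although the groups did not overlap. Nr5a2 to Ptf1a was 0.805 and 0.824 in the controls and 0.918, 0.709 and 0.690 in OA-AP, overlapping groups with a log2 difference of -0.09 (exact permutation p = 0.7).

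**Figure D3:**
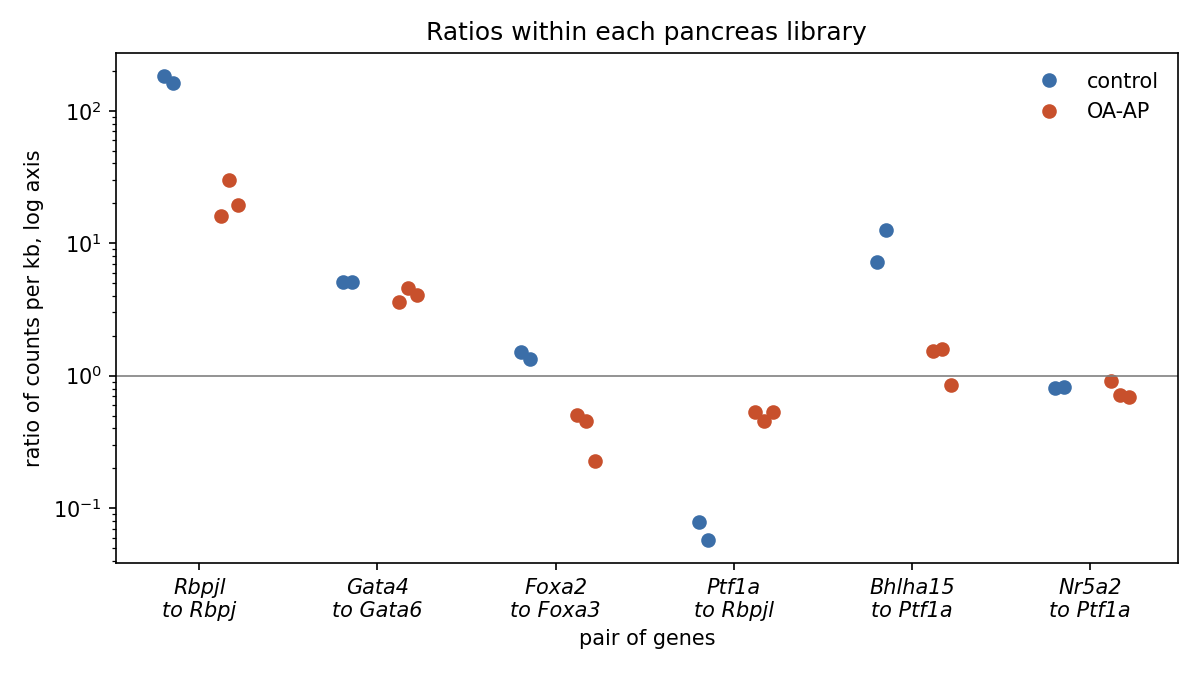
Ratios of counts per kb between pairs of factors within each pancreas library (log axis), with a point for each of the 2 control and 3 OA-AP libraries and a line at a ratio of 1. Foxa2 to Foxa3 crosses that line, from 1.33 and 1.502 in the controls to at most 0.502 in OA-AP, and Nr5a2 to Ptf1a overlaps between the groups.

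Of 8 listed partners and antagonists of PTF1A 7 were tested and 2 were called, beside 29.8% of all genes tested, both lower: Id2, an inhibitor that ties up E proteins, with a log2 fold change of -1.17 (SE 0.23, adjusted p = 0.00677), and the E protein gene Tcf4, at -0.70 (SE 0.20, adjusted p = 0.028). Id2 was at 8.75 and 7.78 CPM in the controls and at 2.99, 3.95 and 4.08 CPM in OA-AP. Rbpj, at 8.84 and 10.1 CPM against 11.8, 9.95 and 11.1 CPM, had a log2 fold change of 0.21 (SE 0.17, adjusted p = 0.374). The E protein genes Tcf3 (0.17, adjusted p = 0.458) and Tcf12 (0.22, adjusted p = 0.249) and the inhibitor gene Id1 (0.46, adjusted p = 0.329) did not pass either. The median of the list was 0.17. Neither Id2 nor Tcf4 was called without pancreas control replicate 1 or without control replicate 2, and 1 gene of the list was called without OA-AP replicate 1. Under library totals the calls turned round, with 4 higher (Tcf3, Tcf12, Rbpj and Id1), 0 lower and a median of 0.88. That scaling called 6349 of the 12884 genes tested, 92% of these as higher. The fall of Id2 and Tcf4 and the values of the other partners are therefore relative to the bulk of genes.

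Among 18 other pancreatic transcription factors 13 were tested, 3 rose, 3 fell and 7 did not pass, with a median log2 fold change of -0.42. Over all genes tested 16.2% were called higher and 13.5% lower. Nr0b2, whose product SHP represses NR5A2, rose from 7.55 and 5.58 CPM to 15.1, 17.3 and 18.7 CPM, a log2 fold change of 1.37 (SE 0.20, adjusted p = 0.0018). Glis3, a zinc finger gene of endocrine and duct development, rose by 1.39 (SE 0.33, adjusted p = 0.0151), and Xbp1, the regulator of the unfolded protein response, by 0.97 (SE 0.24, adjusted p = 0.0183). Zfpm1, which encodes the GATA cofactor FOG1, fell by 1.03 (SE 0.25, adjusted p = 0.018) and Pdx1, of the early pancreas and beta cells, by 1.00 (SE 0.27, adjusted p = 0.0242), both on the log2 scale. With DESeq2 Pdx1 was not called (adjusted p = 0.0503), and 2 genes of the list were called lower. The falls rest on few libraries: 0 genes were called lower, and 2, 1 and 3 higher, without control replicate 1, without control replicate 2 and without OA-AP replicate 1. Library totals gave 5 higher and 0 lower, and TMM without the secretory genes 1 higher and 8 lower, with Nr0b2 called higher under all 4 scalings. Of all 12884 genes tested, library totals called 6349 (92% of these higher) and TMM without the secretory genes 5703 (13.8% of these higher). Xbp1 and Pdx1 were named after their values were seen.

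Of the 4 listed target genes of BHLHA15 1 was called lower, as Bhlha15 was, and 1 higher. The shares over all genes tested were 13.5% lower and 16.2% higher. Rab26, of secretory granule transport, fell from 42.0 and 43.2 CPM to 13.1, 18.4 and 7.48 CPM, a log2 fold change of -1.71 (SE 0.33, adjusted p = 0.00847). Gjb1, which encodes the gap junction protein connexin 32, rose from 44.3 and 50.4 CPM to 76.7, 69.2 and 83.3 CPM (0.69, SE 0.14, adjusted p = 0.00786). The granule gene Rab3d was at -0.04 (SE 0.12, adjusted p = 0.84), and the calcium pump gene Atp2c2 at -0.52 (SE 0.16, adjusted p = 0.0421) stayed under the fold threshold. Without control replicate 1 or without control replicate 2 none of the 4 was called by edgeR, and without OA-AP replicate 3 1 was, as lower. Under library totals Rab26 was not called and Rab3d and Gjb1 were called higher, and under TMM without the secretory genes Gjb1 was not called and the other 3 were called lower. These scalings called 6349 (92% of these higher) and 5703 (13.8% of these higher) of the 12884 genes tested. Among the secretory genes themselves the smallest p-values included those of Pla2g1b (-2.55), Cel (-1.62) and Pnlip (-1.62). Over all 4 lists, with 7, 13, 4 and 25 tested genes, 28 genes were called, beside 29.8% of all genes tested. Fewer were called without control replicate 1 or without control replicate 2.

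**Figure D4:**
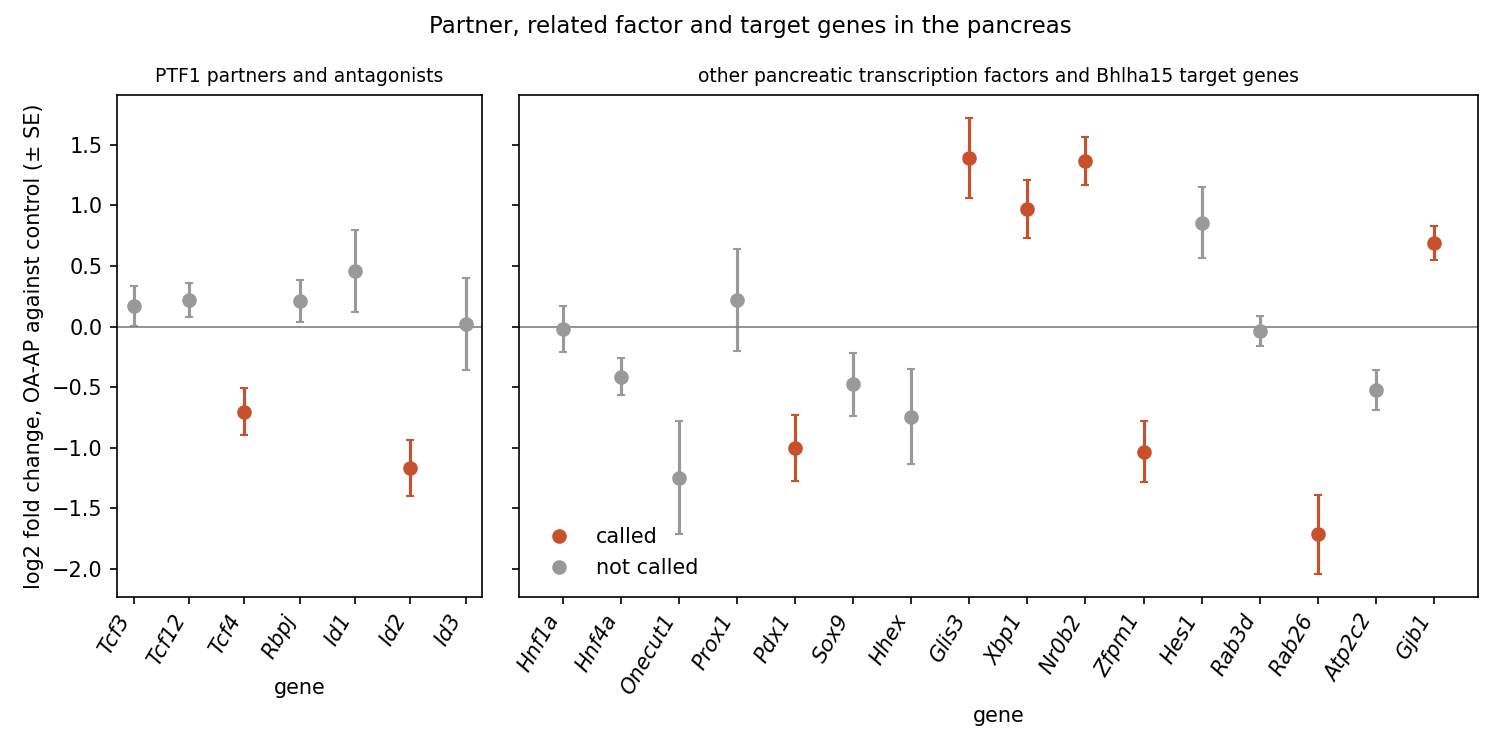
Log2 fold change of OA-AP against control in the pancreas (points, with bars of ± SE) for the tested PTF1 partners and antagonists (left), and for 12 of the 13 tested other pancreatic transcription factors and the BHLHA15 target genes (right), with called genes in orange. Rbpj, Tcf3 and Tcf12 lie near 0, Nr0b2 and Glis3 are highest at 1.37 and 1.39, and Rab26 is lowest at -1.71.

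Markers of other cell types are given beside these changes, to be read against the 29.8% of genes called in the pancreas. Summed endocrine markers were at 979 to 1200 CPM in the controls and 1353 to 1642 CPM in OA-AP, with 2 of 7 called higher. Against that sum, Gcg (log2 fold change -0.33) and Sst (-0.37) were lower without a call. Summed ductal markers were at 226 to 230 CPM and 117 to 183 CPM, with 2 of 6 called lower and a median of -0.47. Muc1 fell the most (-1.55, called), whereas Krt19 (0.75) and Spp1 (0.30) were higher without a call. Leukocyte markers summed to 18.6 to 41.1 CPM and 32.2 to 102 CPM, and 0 of 7 were called by edgeR. The neutrophil genes S100a8, at 0.0858 and 0.598 CPM against 6.04, 0.744 and 29.6 CPM, and S100a9, at 0.257 and 0.399 CPM against 4.10, 1.09 and 40.7 CPM, were higher in every OA-AP library and were called higher by DESeq2 (log2 fold changes of 5.18 and 5.57), while the OA-AP libraries differed widely and OA-AP replicate 3 was highest. Mesothelial markers summed to 93.2 to 113 CPM and 251 to 730 CPM, a rise carried by Krt8 (log2 fold change 2.34, called), which other epithelia also express. The other 5, Lrrn4 (-2.48), Upk3b (-2.19), Wt1 (-1.12), Msln (-0.24) and Upk1b (-0.04), were not called by edgeR, and the list had a median of -0.68. DESeq2 called Lrrn4 as lower (-2.49). For the fibroblast and stellate markers 0 of 6, for the endothelial 1 of 4 (lower), for the large peritoneal macrophage 1 of 4 (higher) and for the adipocyte markers 0 of 1 tested genes were called. Under library totals the endocrine markers had 4 called higher, the fibroblast markers 2 higher and the ductal markers 1 in each direction. The endothelial markers then had 1 higher and 0 lower, and the large peritoneal macrophage markers had 2 higher. The leukocyte markers and the adipocyte markers each had 1 higher under that scaling. It called 6349 of the 12884 genes tested, 92% of these as higher. The part of these cells in the members' changes was not tested.

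The genes whose profile over the 5 pancreas libraries was nearest to that of a member, by the root mean square difference of centred log2 CPM, were Tmem191c (0.0876) and Creb3l1 (0.0948) for Rbpjl and Mccc1 (0.107) and Unc79 (0.109) for Bhlha15. Only 20 genes lay within 0.25 of Rbpjl and 19 within 0.25 of Bhlha15. The flatter profiles had many neighbours, 1640 for Ptf1a (nearest Mterf4 and Tmlhe), 2300 for Nr5a2 (Smpd4 and Ece1), 1527 for Gata4 (Srp72 and Dph7), 2426 for Gata6 (Zfp445 and Paxbp1), 466 for Foxa2 (Ghr and Urod) and 2080 for Foxa3 (Eya3 and Mark4). The libraries are few and share their scaling, and likeness over 5 of them is a description.

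In adipose tissue Gata6 was the most abundant of the 8 factors and most of the others were near the limit of detection. Gata6, which marks large peritoneal macrophages among other cells, had 824, 800 and 1093 counts in the controls and 797, 651 and 428 in OA-AP. Scaled, it was at 30.4, 33.9 and 37.2 CPM against 41.3, 31.3 and 21.6 CPM, overlapping groups with a log2 fold change of -0.11 (SE 0.22, adjusted p = 0.728), and of -0.10 without control replicate 2. Nr5a2 was at 5.28, 2.54 and 3.34 CPM against 6.38, 2.50 and 4.95 CPM (0.30, SE 0.40, adjusted p = 0.575), or 0.10 without control replicate 2, and these groups overlapped too. Summed large peritoneal macrophage markers were at 102 to 133 CPM in the controls (102 and 115 CPM without replicate 2) and 226 to 339 CPM in OA-AP. Of these 6 genes 1 was called higher and 2 lower, and their median log2 fold change was -0.29, against the rise of the sum. DESeq2 called Timd4 (-1.87) and Alox15 (-3.29) lower and Prg4 (2.19) higher. Without a call there, Icam2 (-0.09) and Garnl3 (-0.47) were lower and Cxcl13 (2.76) higher. Summed mesothelial markers were at 260 to 702 CPM (427 and 702 CPM without replicate 2) and 153 to 496 CPM, with 0 of 6 called by edgeR. The part of these macrophages and of mesothelial cells in the level of Gata6 was not tested.

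Of the 8 members 4 passed the filter on low counts in adipose tissue, Rbpjl, Bhlha15, Nr5a2 and Gata6, and 1 was called, Rbpjl as lower, where 25.1% of 15839 genes were called and 13% were called lower. Rbpjl had 12, 132 and 19 counts in the controls and 2, 1 and 4 in OA-AP, and its log2 fold change was -4.17 (SE 1.33, adjusted p = 0.0474). It passed the filter through its control counts alone, so the direction of this call is not independent of the filter. The 132 counts came from control replicate 2, the library with acinar RNA. Without that replicate, or without control replicate 3, Rbpjl did not pass the filter, and without OA-AP replicate 1, 2 or 3 its adjusted p was 0.101, 0.119 or 0.0875. It was also not called with no filter on low counts (-4.17, adjusted p = 0.15), and it was called when control replicate 1 was left out (-4.64). Matn4, on its opposite strand, had 12 to 101 counts in these libraries, and reads over the shared stretch could be of either gene.

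Bhlha15 had 4, 91 and 4 counts in the adipose controls and 19, 15 and 29 in OA-AP. Control replicate 2 was again the high library, at 3.86 CPM against 0.148 and 0.136 CPM in the other controls and 0.985, 0.721 and 1.46 CPM in OA-AP. Over all 6 libraries the log2 fold change was -0.34 (SE 1.18, adjusted p = 0.837). Without control replicate 2 it was 2.86 (SE 0.50, adjusted p = 0.0107), and every OA-AP library lay above both remaining controls.

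The remaining 4 members were not tested in adipose tissue. Gata4 had 14, 10 and 20 counts in the controls and 5, 2 and 2 in OA-AP, groups that did not overlap, and it passed the filter when some libraries were left out. Its log2 fold change was then -1.95 (SE 0.52, adjusted p = 0.0365) without control replicate 2 and -2.40 (adjusted p = 0.0203) without OA-AP replicate 1, and it was not called without OA-AP replicate 2 (-1.57, adjusted p = 0.0551) or 3 (-1.60, adjusted p = 0.0797). Ptf1a had 1, 8 and 0 counts in the controls and Foxa3 0, 5 and 0, with the highest in control replicate 2, and both had 0 counts in each OA-AP library. Foxa2 had 2, 3 and 3 counts in the controls and 0, 1 and 0 in OA-AP. These last 3 were under 9 counts everywhere, and no difference was detectable at this depth. With control replicate 2 left out, Bhlha15, Nr5a2, Gata4 and Gata6 were tested and 2 members were called, Bhlha15 as higher and Gata4 as lower. Each of these 2 then passed the filter only through the group where its counts were higher. The directions of these calls are therefore not independent of the filter. The share of all genes called without that replicate is not reported here.

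**Figure D5:**
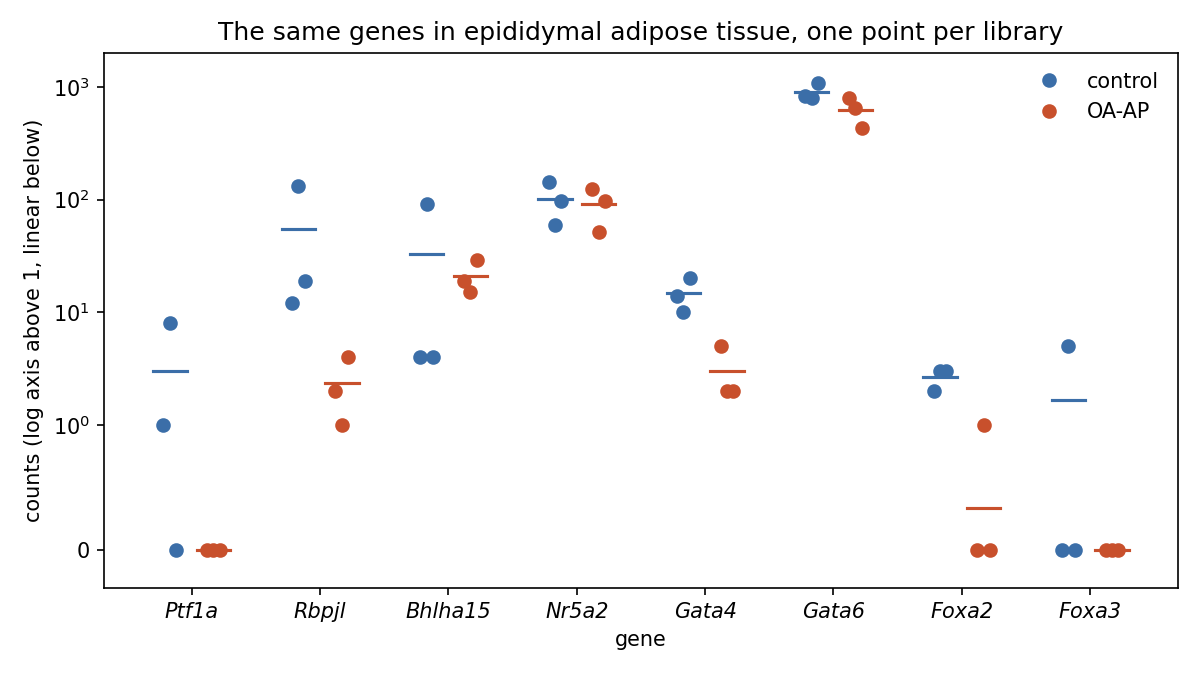
Counts of the 8 factors in each of the 3 control and 3 OA-AP adipose libraries (log axis above 1, linear below), with a line at each group mean. A single control library, replicate 2, holds the high points of Rbpjl (132), Bhlha15 (91), Ptf1a (8) and Foxa3 (5).

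In adipose control replicate 2 the acinar factors were also set against the secretory genes. As a per-million share of these counts Rbpjl was at 623 there and at 819 and 710 in the control pancreas, and Bhlha15 was at 430 against 284 and 311. Ptf1a, from 8 counts, was at 37.8 against 16.9 and 10.7, Foxa3, from 5 counts, at 23.6 against 10.4 and 9.46, and Foxa2, from 3 counts, at 14.2 against 18.1 and 14.7. Foxa2 had about as many counts in the other adipose controls, so its share here does not measure acinar RNA. Library totals, scaling and tissue of origin differ between these libraries, and no test was made on a single library.

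Between the control tissues, in a fit over all 11 libraries, 7 of the 8 members were called and all 7 were higher in the pancreas, where 55.5% of 17046 genes were called and 26% were called higher in the pancreas. The log2 differences were 10.37 for Rbpjl, 9.74 for Bhlha15, 8.71 for Ptf1a, 9.02 for Foxa3, 7.97 for Gata4 and 5.44 for Nr5a2. Those of Ptf1a and Foxa3 rest on the 8 and 5 counts of adipose control replicate 2, without which they had at most 1 count and 0 counts in an adipose control library, and no value is given for them then. Without that replicate those of Rbpjl and Bhlha15 were larger, at 12.29 and 12.83, and those of Gata4 (7.79) and Nr5a2 (5.20) were similar. The value of 12.83 for Bhlha15 rests on a few counts in each remaining adipose control library. For Foxa2 no adipose control library exceeded 3 counts. Against 3 counts per library it was at least 483-fold higher in the pancreas, a bound that applies only to TMM scaling. Under library totals the differences were smaller, at 7.90 for Rbpjl, 7.27 for Bhlha15, 5.51 for Gata4 and 2.99 for Nr5a2. The same 7 members were still called higher in the pancreas. Gata6 was the exception, with a log2 difference of 0.20 (SE 0.23, adjusted p = 0.457), which became -2.26, a call in favour of adipose tissue, under library totals, a scaling that moved the median of all genes by -2.45.

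The tissue by condition term, which asks whether the change in OA-AP differed between pancreas and fat, was called for 0 of the 8 members by edgeR, where 20.6% of 17046 genes were called, and 1 had an unadjusted p under 0.05. That member was Gata4, with a log2 difference between the tissues of 1.01 (SE 0.39, adjusted p = 0.107), and of 1.18 without adipose control replicate 2. For Bhlha15 the term was -2.43 (SE 1.33, adjusted p = 0.24), and without adipose control replicate 2 it was -5.51 (adjusted p = 0.000537) and the only one called. This last value rests on a few Bhlha15 counts in each remaining adipose control library. Rbpjl (1.33, adjusted p = 0.602), Nr5a2 (-0.29, adjusted p = 0.72) and Gata6 (-0.36, adjusted p = 0.448) did not pass, nor did they without that replicate (-0.59, -0.04 and -0.31), and for Ptf1a, Foxa2 and Foxa3 the term rests on a few adipose counts and is not given. An effect called in the pancreas alone is thus not shown to differ from that in fat for any member when all libraries are used.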

How the data were processed

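RNA sequencing counts of 11 libraries were analysed. The authors trimmed and filtered the reads with Trim Galore (v0.6.6) and fastp (v0.20.1), mapped them to GRCm38 with STAR, counted them on genes with featureCounts (v2.0.1) and deposited the raw, unnormalized counts of each gene. The annotation release and strand setting are not given in the sources used here. Another deposited column, which the authors list beside the counts, holds the gene length, used for values per kb.

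Samples were grouped by their labels. The 8 members and the gene lists were chosen with earlier results of these data known. Low counts were removed with filterByExpr, and each tissue was tested with edgeR's quasi-likelihood test (edgeR 4.0.16, R 4.3.3, TMM, robust). A joint fit of 45260 shared genes, before the filter, gave the contrast of control tissues and the tissue by condition term. The standard error of a log2 fold change is its size over the root of its F statistic, and intervals use the degrees of freedom of that test. Alternatives were other scalings, no filter, DESeq2 (1.42.0), a replicate block, other fold thresholds and leaving out each library. Ratios were compared with two-sided exact permutation tests. Log2 CPM used a prior count of 2, and a floor of 3 counts per library covers counting error only. The named genes were all members, up to 4 tested genes of each list by smallest pancreas p-value, Rbpj, Tcf3, Tcf12, Foxa1 and Nr0b2, and the 2 nearest profiles per member. Some genes of these lists are not reported here by name. Promoters came from RefSeq. Scripts were tested on simulated data. Replicates differed by more than counting noise (lowest chi-square per degree of freedom 6.91).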

Additional observations from a re-analysis of the deposited data

How the results depend on the processing

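Rbpjl and Bhlha15 kept their direction and their call in the pancreas under all 11 fits tried on that tissue beside the reported one, with log2 fold changes of -3.40 to -2.08 and -3.37 to -2.00. With a fold change of at least 2, 3 members were called in the pancreas instead of 5, and leaving out a library gave 3 to 5. Library totals gave -0.10 for Gata4, -0.49 for Foxa2, 0.23 for Gata6, 0.71 for Nr5a2 and 0.79 for Ptf1a in the pancreas, 0.49 for Gata6 and 0.56 for Nr5a2 in the tissue by condition term with 1 member called (Gata4), and -2.26 for Gata6 between control tissues. TMM without the secretory genes gave 0.065 for Foxa3, -1.09 for Gata6, -0.61 for Nr5a2 and -0.51 for Ptf1a. Nr5a2, at about 0, was at 0.072 without a filter and at 8.86e-05 with DESeq2. Leaving out a library in turn gave -1.35 to -1.05 for Foxa2, 0.52 to 0.76 for Foxa3, -0.18 to 0.22 for Nr5a2 and -0.10 to 0.33 for Ptf1a in the pancreas, -0.39 to 0.14 for Foxa2 per acinar secretory counts, and 15 to 31 called list genes. In adipose tissue it gave -0.89 to 2.86 for Bhlha15, -0.35 to 0.11 for Gata6 and 0 to 2 called members. Without adipose control replicate 2 the tissue by condition term had 1 called member and was -0.59 for Rbpjl. The cause of these shifts was not tested.

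Deviations from the group means were correlated between control and OA-AP samples with the same replicate number. In adipose tissue these correlations were -0.0058, 0.0562 and -0.163, and those of pairs with different numbers ran from -0.25 to 0.293. In the pancreas they were 0.00147 and -0.041. There the deviations of the 2 controls mirror each other, so these values cannot show whether such pairs deviate together. Control and OA-AP samples with the same number are different mice. Whether pancreas and adipose samples with the same number came from the same mouse was not tested. With a replicate block 4 members were called in the pancreas, Foxa3 was at 0.57, under the fold threshold, and Nr5a2 at 0.086, and Bhlha15 in adipose tissue was at 0.71. With 2 pancreas controls and few adipose counts for 4 members, small differences were not detectable.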
